A study of Mus musculus with 8 samples.

Results

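The 8 genes described here encode the metallothioneins Mt1 and Mt2 and 6 transporters of zinc and related metals: the exporters Slc30a1 and Slc30a10 and the importers Slc39a4, Slc39a5, Slc39a10 and Slc39a14. They were taken by symbol from the 28146 gene names of the array, and 11 of its 41174 probes carry these names: 2 probes each for Slc30a1, Slc30a10 and Slc39a14, and 1 for each other gene. Liver RNA came from C57BL/6J mice on gestation day 18, from pregnant mothers and from male fetuses, 2 per mother. In the restricted group (FR) the mothers received 50% of the chow eaten by the control group from gestation day 10 to 17, and control mothers ate freely. The animals' age is not given. Livers of 1 diet were pooled as RNA; each 2-colour array carried 1 pool of either diet, and another array repeated the pair with the dyes exchanged. The mothers gave 1 pool pair of 6 animals per diet, and the fetuses gave 1 pair of pools of 6 and 2 pairs of pools of 3, called group 1 and group 2.

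Each pool pair is 1 replicate, the mean of its arrays, so that fetal values have n = 3 and the maternal value has no replicate and no test of its own. By their titles the arrays of an exchange carry the same pools; a description text, in which rat tissue is named too, numbers the exchanged array as another pool, and the titles were followed. The labels do not say whether the fetal pools hold different litters, so the p-values measure the spread between these pools, which may be smaller than that between litters. The mothers and the fetal pool of 6 lie on slide 1 and the pools of 3 on slide 2. Median spot signals were 70 to 284 in Cy3 and 122 to 310 in Cy5, over local backgrounds of 46 to 68, and the number of arrays limits the precision. On all 8 arrays both channels of all 11 probes were marked well above background. Alb stood at a log2 signal of 17.2 in control mothers and 17.3 to 17.6 in the control fetal pools, and the fetal liver gene Afp at 7.85 and 17.0 to 17.1.

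Metallothioneins are small proteins whose cysteines hold zinc, copper and other metals; the liver is among their main sites, and newborn and fetal rodent liver is known for high metallothionein. Zinc activates the transcription factor MTF-1, which binds metal response elements in the promoters of Mt1, Mt2 and the zinc exporter gene Slc30a1; glucocorticoids and inflammatory signals also induce Mt1 and Mt2. Proteins of the Slc30 family move metal out of the cytosol, to the outside or into organelles, and Slc39 proteins move it into the cytosol. Slc30a10 is known as a manganese exporter, and Slc39a14 carries manganese and iron as well as zinc.

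The Mt1 probe, a 60-mer printed on 10 spots of each array, is shown because its letters carry the feature that gives these proteins their metal binding. In the reading frame with the most cysteine codons, 6 of its 19 whole codons encode cysteine, in capitals below, and none is a stop codon. Its longest run of letters shared with the Mt2 probe is 5 bases.
Mt1 probe, chr8:96704011-96704070, mm9, plus strand: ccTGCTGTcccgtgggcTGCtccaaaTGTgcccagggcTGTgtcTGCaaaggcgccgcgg

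RefSeq promoter windows of build GRCm38.p6 were found for 6 of the 8 genes, and those of the 3 genes with a probe that rose in fetal liver are printed here, 250 bases before the annotated start. Capitals mark the metal response element core, TGCACNC or TGCGCNC on either strand.
Mt1, chr8:94178839-94179088, plus strand: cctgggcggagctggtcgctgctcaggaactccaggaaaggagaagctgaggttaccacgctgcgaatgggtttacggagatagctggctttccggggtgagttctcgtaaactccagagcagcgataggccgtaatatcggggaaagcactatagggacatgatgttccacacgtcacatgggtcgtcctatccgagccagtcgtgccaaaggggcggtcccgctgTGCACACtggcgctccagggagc
Mt2, chr8:94172368-94172617, plus strand: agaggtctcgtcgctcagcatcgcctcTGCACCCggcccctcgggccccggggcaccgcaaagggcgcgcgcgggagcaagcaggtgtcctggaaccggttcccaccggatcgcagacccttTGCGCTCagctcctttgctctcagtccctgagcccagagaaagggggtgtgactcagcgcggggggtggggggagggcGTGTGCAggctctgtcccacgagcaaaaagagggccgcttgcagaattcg
Slc30a1, chr1:191906531-191906780, plus strand: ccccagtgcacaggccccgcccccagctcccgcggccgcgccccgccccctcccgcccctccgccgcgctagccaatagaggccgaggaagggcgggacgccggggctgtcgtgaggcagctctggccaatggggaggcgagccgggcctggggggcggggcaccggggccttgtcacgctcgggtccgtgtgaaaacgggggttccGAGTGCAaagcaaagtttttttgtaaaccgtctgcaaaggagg

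The core occurred 3 times before the start of Mt2 and of Slc30a10 (in the latter 2 of them overlap on opposite strands), and once before those of Mt1 and Slc30a1. It occurred once in 1 of the 2 windows of Slc39a5 and in neither window of Slc39a10. Of the 32851 windows of this length in the table, 21.4% held at least 1 core and 1.26% at least 3. With the 50 bases after the annotated start included, Mt1 had 3 cores and Mt2 had 4, where 1.97% of windows had at least 3. The annotated start of Mt1 may lie upstream of the one most used in liver, so its distances are from the annotation only. The glucocorticoid response element palindrome, spelled GNACANNNTGTNC, was found in the Mt1 window alone among these 8, 94 to 82 bases before the start, and in 0.387% of all windows. The antioxidant response element core, TGACNNNGC on either strand, occurred once each in the windows of Mt2 and Slc30a1, in 2 places in 1 window of Slc39a5, and in 10.2% of all windows. These matches describe the letters of the windows and were not tied to the array values.

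In fetal liver, both metallothionein genes and 1 probe of the exporter gene Slc30a1 rose with maternal restriction, and all 4 importer genes fell. By limma with Benjamini-Hochberg adjustment over all 32099 probes tested, 3 of the 11 probes were higher in FR and 5 lower at an adjusted p under 0.05. Among all probes tested, 24.2% passed this threshold, 10.5% higher and 13.7% lower, and the median of all was 0.00 on the log2 scale. Of those calls 43.4% were higher, and 25.5% without loess. The genes described here and the gene lists below were chosen with earlier results of these data known. The shares called among them are therefore descriptions and no test of the set. In the mothers, where a probe was counted if it passed 2-fold the same way on both arrays, 1 of 11 was counted, a Slc30a10 probe that was lower, against 1.98% of 29085 probes (1.01% lower). Without loess that probe was no longer counted, although its mean log2 ratio was -1.20. Most fetal calls were lost without the pool pair of 6, as over the whole array, where 7756 calls became 727. All values of the 8 probes kept their sign. Only Slc30a1 probe 1 passed (adjusted p = 0.0480), and the other 7 probes had adjusted p between 0.05003 and 0.0917. Without group 1 or without group 2 instead, all 8 passed. When log ratios were scaled between arrays none of the 8 passed (adjusted p = 0.0583 to 0.0759), and no probe of the array did, although 11099 had an unadjusted p under 0.05. In bulk liver, fewer cells of a type and less RNA per cell cannot be told apart.

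**Figure D1:**
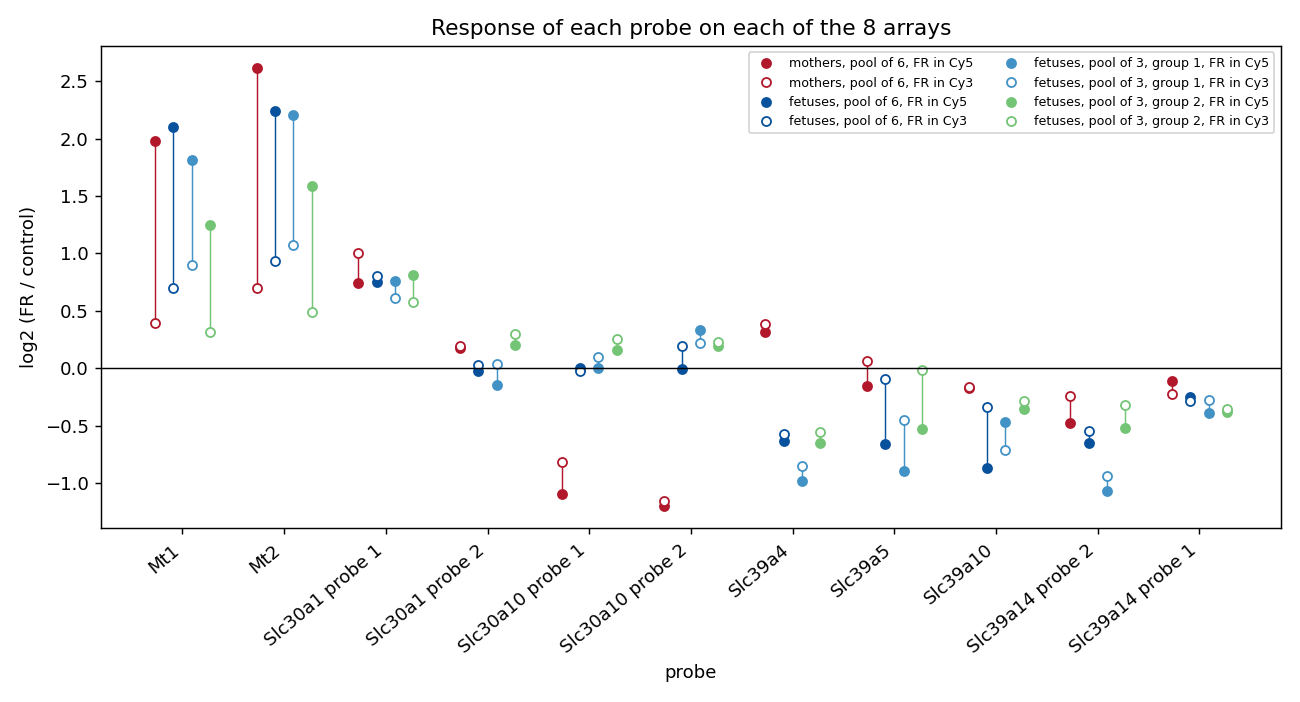
The log2 ratio of FR over control (vertical axis) of the 11 probes on each of the 8 arrays; colours stand for the 4 pool pairs, filled points for FR in Cy5, open points for FR in Cy3, and a line joins the arrays of a dye exchange. Mt1 and Mt2 lie above 0 on all 8 arrays with wide gaps between dyes, Slc30a10 is low in the mothers only, and Slc39a4 lies above 0 in the mothers and below 0 in every fetal pair.

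Mt1 had log2 ratios of FR over control of 1.40 in the fetal pool pair of 6, 1.36 in group 1 and 0.78 in group 2, and 1.19 in the mothers. All 3 fetal pairs were higher in FR, with the lowest value in group 2, and the maternal value lay inside the fetal range. The fetal mean was 1.18 ± 0.35 (SD, n = 3; 2.26-fold, adjusted p = 0.00785), and the maternal pair gave 2.28-fold. In log2 signal, the control pools stood at 15.4, 15.6 and 15.9 in the fetuses and the FR pools at 16.8, 17.0 and 16.7, so that the diets did not overlap. Control mothers were at 15.6 and FR mothers at 16.8. Without the pool pair of 6 the fetal mean was 1.07 (adjusted p = 0.0536).

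Mt2, whose probe lies at chr8:96697371-96697430 (mm9, plus strand) on the same chromosome as Mt1, had ratios of 1.59 in the pool pair of 6, 1.64 in group 1 and 1.04 in group 2. Its maternal ratio was 1.66, just above the highest fetal one. The fetal mean was 1.42 ± 0.33 (SD, n = 3; 2.68-fold, adjusted p = 0.00583), and the maternal pair gave 3.15-fold. Control fetal pools had log2 signals of 15.9, 15.9 and 16.2 and FR fetal pools 17.5, 17.6 and 17.3, again without overlap, and the mothers went from 15.7 to 17.3. As for Mt1, group 2 had the smallest ratio and the highest control signal of the fetal pairs. Without the pool pair of 6 the mean was 1.34 (adjusted p = 0.05003).

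The size of both metallothionein ratios depended on the dye. For Mt1, FR in Cy5 gave 1.98 in the mothers, 2.097 in the fetal pool of 6, 1.81 in group 1 and 1.24 in group 2, while FR in Cy3 gave 0.40, 0.70, 0.90 and 0.32. Mt2 gave 2.62, 2.24, 2.21 and 1.59 with FR in Cy5, and 0.70, 0.94, 1.07 and 0.49 with FR in Cy3. Every one of these ratios was above 0, but the gap between orientations was 0.92 to 1.58 for Mt1 and 1.11 to 1.92 for Mt2. Between 0.172% and 0.393% of the 28505 probes measured on all arrays had a larger gap in the same pair. With FR in Cy5 alone the fetal mean of Mt1 was 1.72 and with FR in Cy3 alone 0.64; those of Mt2 were 2.01 and 0.83. All 4 of these passed the threshold in their own fit. No spot of the 11 probes was marked saturated.

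**Figure D2:**
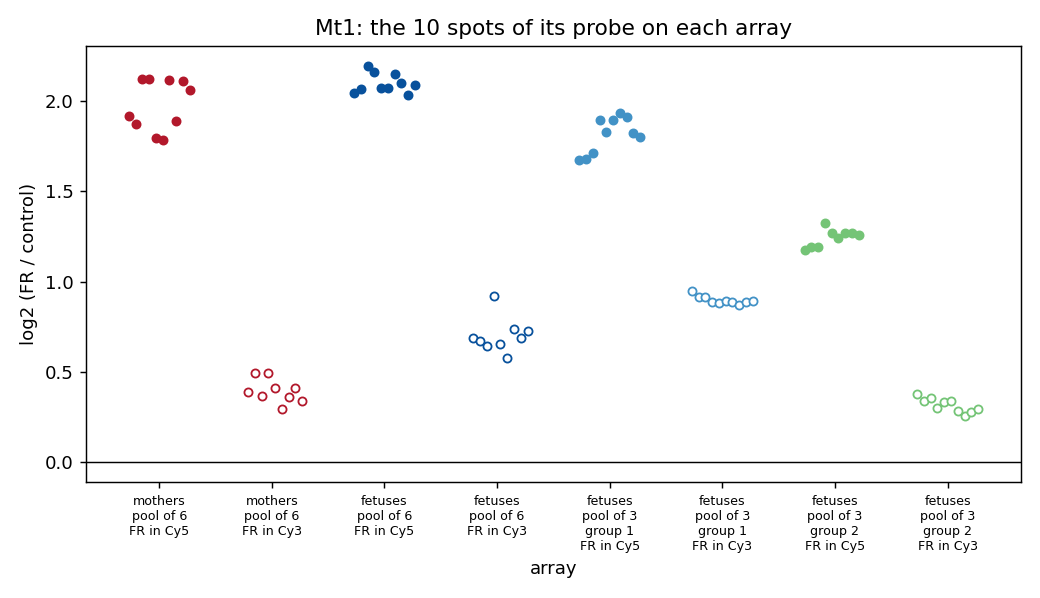
The log2 ratio of FR over control (vertical axis) of the spots of the Mt1 probe, of which there are 10 on each array less those marked as population outliers, for each pool pair and dye orientation. Spots of 1 array differ by little (SD 0.02 to 0.14), while arrays of 1 pair with exchanged dyes lie far apart, and all spots lie above 0.

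The 10 Mt1 spots show the spread within an array. Each pool pair has a single array per dye orientation, so error between arrays and an effect of the dye cannot be separated within a pair. FR in Cy5 gave the higher Mt1 ratio in every pair. Within arrays the SD of the spots was 0.02 to 0.14, with 9 or 10 spots used. In the mothers the spots ran from 1.78 to 2.12 with FR in Cy5 and from 0.30 to 0.50 with FR in Cy3. The spread of spots was thus smaller than the gap between dyes in each pool pair. On slide 1 the scanner software marked 9 or 10 of the 10 Mt1 spots of each array as non-uniform, and on slide 2 none. Leaving such spots out gave 1.21 for the fetal mean of Mt1 (adjusted p = 0.0125), with at most 1 spot left on each slide 1 array.

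Of the exporters, Slc30a1 encodes the zinc exporter of the plasma membrane. Its probe 1 (chr1:193733593-193733652, mm9, plus strand) had ratios of 0.78, 0.69 and 0.69 in the fetal pool pair of 6, group 1 and group 2, and 0.87 in the mothers. These were the most even values among the 3 probes that rose, with all fetal arrays between 0.57 and 0.81. The fetal mean was 0.72 ± 0.05 (SD, n = 3; 1.65-fold, adjusted p = 0.00468), and the maternal pair gave 1.83-fold. In log2 signal the fetal control pools stood at 10.3, 9.98 and 9.90 and the FR pools at 11.1, 10.7 and 10.6, and the mothers went from 11.2 to 12.1. Probe 2 of the same gene (chr1:193736760-193736819), further downstream, had 0.00, -0.06 and 0.25 in the fetal pairs (mean 0.07 ± 0.16, adjusted p = 0.552) and 0.19 in the mothers. The probes of Slc30a1 therefore disagree, and only probe 1 rose; the sign of the fetal mean of probe 2 turned without loess (-0.06).

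Slc30a10, the manganese exporter gene, differed between mothers and fetuses. Probe 2 (chr1:187292107-187292166, mm9, plus strand) read -1.20 with FR in Cy5 and -1.16 with FR in Cy3 in the mothers, a mean of -1.18 or 2.27-fold lower. Probe 1 (chr1:187288652-187288711) read -1.10 and -0.82, a mean of -0.96 or 1.94-fold lower, short of 2-fold on 1 array. In the fetal pairs probe 2 had 0.09, 0.28 and 0.21 (mean 0.19 ± 0.09, adjusted p = 0.0586) and probe 1 -0.01, 0.05 and 0.21 (mean 0.08 ± 0.11, adjusted p = 0.369). Neither fetal mean passed the test, and no fetal pair overlapped the maternal value. Probe 2 stood at a log2 signal of 10.4 in control mothers and 9.26 in FR mothers, against 10.1 to 10.5 over all 6 fetal pools of both diets.

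Among the importers, Slc39a4 encodes the importer through which the gut takes up dietary zinc. Its probe (chr15:76442866-76442925, mm9, minus strand) had ratios of -0.60, -0.92 and -0.60 in the fetal pool pair of 6, group 1 and group 2, and 0.35 in the mothers. All 6 fetal arrays were below 0 and both maternal arrays above it, at 0.32 and 0.38. The spot was marked non-uniform on both maternal arrays and both arrays of the fetal pool of 6, and on no slide 2 array. Its fetal mean was -0.71 ± 0.18 (SD, n = 3; 1.63-fold lower, adjusted p = 0.00776). The control fetal pools lay within a narrow band of log2 signal, at 14.5, 14.5 and 14.4, and the FR pools at 13.9, 13.6 and 13.8. Without the pool pair of 6 the fetal mean was -0.76 (adjusted p = 0.0503). Markers of gut epithelium were measured beside it. Of 4 tested in the fetus 2 fell, Vil1 (-1.04) and Lct (-0.23), against 13.7% of all probes. The other 2 did not pass, Fabp2 at 0.44 and Apoa4 at 0.47, and the median was 0.10. The mean log2 signal of all 5 was 7.83 to 7.96 in control and 7.64 to 7.98 in FR fetal pools, and their part in the result was not tested.

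Slc39a14, an importer of zinc, iron and manganese that is prominent in liver, fell on both probes. Probe 2 (chr14:70703405-70703464, mm9, minus strand) had -0.60, -1.001 and -0.42 in the fetal pairs and -0.36 in the mothers. Group 1 had the largest fall, as for Slc39a4. The fetal mean was -0.67 ± 0.30 (SD, n = 3; 1.59-fold lower, adjusted p = 0.0173). Probe 1 (chr14:70706300-70706359) had the more even values of -0.27, -0.34 and -0.37 (mean -0.32 ± 0.05, 1.25-fold lower, adjusted p = 0.0119) and -0.17 in the mothers. Both probes were below 0 on all 8 arrays. The spot of probe 2 was marked non-uniform on every slide 1 array and on no slide 2 array. With slide as a term probe 2 no longer passed (adjusted p = 0.0615), and without the pool pair of 6 neither did (-0.71, adjusted p = 0.0782, and -0.35, adjusted p = 0.0615).

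Slc39a10, a plasma membrane importer known for its part in B cell survival, had -0.60, -0.59 and -0.32 in the fetal pairs and -0.17 in the mothers (chr1:46865343-46865402, mm9, minus strand). All 6 fetal arrays lay below 0, from -0.87 to -0.28. Over the fetal pairs the mean was -0.50 ± 0.16 (SD, n = 3; 1.42-fold lower, adjusted p = 0.0118), and -0.45 without the pool pair of 6 (adjusted p = 0.0695). The deposited ratios gave larger falls for this dim probe, with a fetal mean of -0.82 and a maternal value of -0.74, which was -0.31 with a background offset of 10. Its signals were low, 8.33, 7.80 and 7.43 in control and 7.73, 7.21 and 7.12 in FR fetal pools, so that the diets overlapped between pools while each pair fell. The B lineage marker Vpreb3, at a log2 signal of 12.5 to 12.7 in the control fetal pools, fell by 1.35 on the log2 scale, while Cd79a at -0.19 (adjusted p = 0.0595) and Pax5 at 0.03 (adjusted p = 0.675) did not pass, and the part of B lineage cells in the fall of Slc39a10 was not tested.

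Slc39a5, an importer of the basolateral membrane of epithelial cells that is also known from pancreas, had -0.38, -0.67 and -0.27 in the fetal pairs and -0.05 in the mothers, or 0.12 with the deposited ratios. Its probe is placed at chr10:127834340-127834762 (mm9, minus strand), a span longer than 60 bases. The fetal mean was -0.44 ± 0.21 (SD, n = 3; 1.36-fold lower, adjusted p = 0.0231). This fall rested on 1 dye orientation: FR in Cy5 gave -0.66, -0.89 and -0.53, and FR in Cy3 -0.10, -0.45 and -0.02, with a mean of -0.19 (adjusted p = 0.206). It was also lost with slide as a term (adjusted p = 0.0766) and without the pool pair of 6 (-0.47, adjusted p = 0.0917). Of 6 pancreas markers in the fetus 1 rose, Cela1 by 0.57, against 10.5% of all probes. Their mean log2 signal was 7.41 to 7.77 in control and 7.45 to 8.37 in FR pools. The part of these markers in the Slc39a5 values was not tested.

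The maternal and fetal responses were then compared in 1 model of the 4 pool pairs, in which the single maternal pair is assumed to vary as the fetal pairs do. Of the 11 probes 3 differed at an adjusted p under 0.05 by limma, against 3.04% of 28505 probes (1.5% higher in mothers and 1.54% lower; the higher share of calls was 49.3%, and 60.0% without loess): both probes of Slc30a10 and the probe of Slc39a4. The maternal response of Slc30a10 was lower by 1.37 ± 0.11 (SE) for probe 2 (adjusted p = 0.0118) and by 1.04 ± 0.12 (SE) for probe 1 (adjusted p = 0.0230) on the log2 scale. For Slc39a4 it was higher by 1.06 ± 0.16 (SE, adjusted p = 0.0411). On slide 1 alone, which holds the mothers and the fetal pool pair of 6, the differences were -1.27, -0.95 and 0.95 in the same order. The fit with slide as a term gave the fetal pairs of each slide their own mean and set the mothers against the average of these. It thus did not take slide out of the comparison of mothers and fetuses, and left fewer pairs per mean. The calls were lost without the fetal pool pair of 6 (adjusted p = 0.0906, 0.115 and 0.138) and with slide as a term (0.0797, 0.104 and 0.135), while the differences stayed between -1.42 and -1.01 for Slc30a10 and at 1.11 and 1.03 for Slc39a4.

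The response of the metallothioneins was not told apart between mothers and fetuses. The maternal minus fetal difference was 0.01 ± 0.26 (SE, adjusted p = 0.990) for Mt1 and 0.23 ± 0.26 (SE, adjusted p = 0.692) for Mt2, and -0.21 and 0.07 on slide 1. With these errors a sizeable difference in either direction could have gone undetected. For Slc30a1 probe 1 it was 0.15 ± 0.09 (SE, adjusted p = 0.454), and for Slc39a5, Slc39a10 and the probes of Slc39a14 the maternal values were nearer 0, with adjusted p from 0.285 to 0.541.

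**Figure D3:**
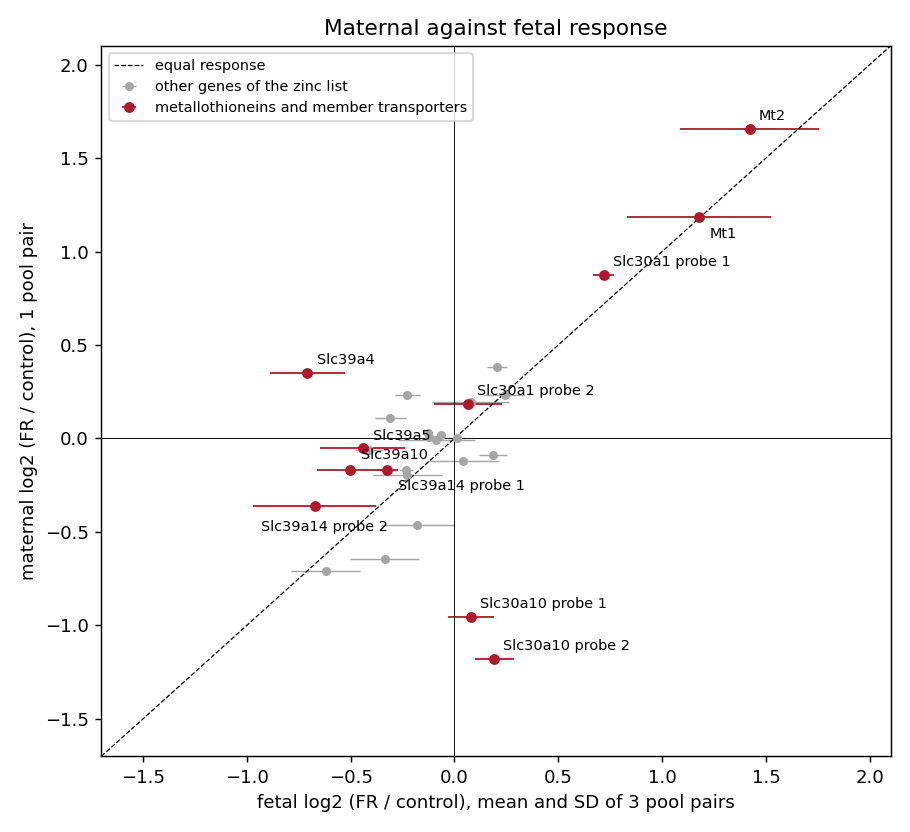
The maternal log2 ratio of FR over control (vertical axis, 1 pool pair) against the fetal one (horizontal axis, mean with SD of 3 pool pairs) for the 11 probes in red and, in grey, the 18 other genes of the zinc list that were tested; the dashed line marks equal responses. Mt1, Mt2 and Slc30a1 probe 1 lie near the line, whereas both Slc30a10 probes and Slc39a4 lie off it.

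Levels in control mothers and control fetuses were compared probe by probe. Of the 11 probes 4 were higher in mothers and 2 in fetuses at an adjusted p under 0.05 by limma, against 32.1% of 30531 probes (16.5% higher in mothers and 15.6% higher in fetuses). Of the calls 51.4% were higher in mothers, and 62.9% with channels scaled to their 75th percentile, which moved the median of all probes from 0.01 to 0.25. The largest of these differences was that of Slc39a5, at 7.004 in control mothers and 9.41, 10.4 and 10.3 in the control fetal pools, or 8.15-fold higher in fetuses (adjusted p = 0.00518). On slide 1 alone its maternal minus fetal difference was -2.41. Of the pancreas markers, Cela1 stood at 6.79 in control mothers and 9.33 to 9.51 in the control fetal pools. Cpa1 stood at 7.16 and 7.71 to 9.15. Ptf1a (7.90 and 6.79 to 6.89) and Pnlip (7.36 and 6.44 to 6.67) were higher in mothers. For Prss2 and Ins2 the maternal value lay inside the fetal range. The part of pancreas cells in the Slc39a5 levels was not tested. Slc39a4 was at 13.6 in mothers against 14.5 ± 0.03 (SD, n = 3) in fetuses, a difference of -0.82 (adjusted p = 0.0121) that was -0.16 under the 75th percentile scaling (adjusted p = 0.609).

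In the other direction, Slc39a14 probe 1 stood at 9.73 in mothers and 8.30 ± 0.18 in fetuses (2.69-fold, adjusted p = 0.00518). Probe 2 of that gene differed by 0.45 and did not pass (adjusted p = 0.0765). Slc30a1 was higher in mothers on both probes, by 1.14 (adjusted p = 0.0123) and 0.65 (adjusted p = 0.0334), and probe 1 of Slc30a10 by 0.75 (adjusted p = 0.0243), while its probe 2 differed by 0.21 (adjusted p = 0.449). Without group 1 of the fetal pools the calls of both Slc30a1 probes, Slc30a10 probe 1 and Slc39a4 were lost (adjusted p = 0.0548, 0.115, 0.107 and 0.0693), and without group 2 those of Slc30a1 probe 2 and Slc30a10 probe 1 (0.0822 and 0.0756). Control levels of Mt1 and Mt2 were not told apart between mothers and fetuses: the differences were -0.04 ± 0.25 (SE, adjusted p = 0.922) and -0.36 ± 0.19 (SE, adjusted p = 0.225), and that of Mt1 was 0.12 with scaling to the 75th percentile, below the median of all probes in that scaling. Slc39a10 differed by -0.39 (adjusted p = 0.453).

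For 2 genes the order of mother and fetus in level was not the same in both diets. By limma the FR differences did not pass for Slc39a4 (0.24, adjusted p = 0.437) and Slc30a10 probe 1 (-0.29, adjusted p = 0.292). That of Slc30a10 probe 2 did pass, at -1.17 (adjusted p = 0.00607), while its control difference had not. Slc39a4 was lower in control mothers than in every control fetal pool, but in FR its signal of 14.0 in mothers lay above the 13.6 to 13.9 of the fetuses. For Slc30a10 probe 1, control mothers at 10.6 lay above the control fetal pools at 9.76 to 9.97, and FR mothers at 9.63 lay below the FR fetal pools at 9.81 to 9.98. For probe 2, control mothers at 10.43 lay just above the control fetal pools at 10.09 to 10.41. In FR, mothers at 9.26 lay below the fetal pools at 10.37 to 10.51. These are the same values as those behind the differences in response.

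**Figure D4:**
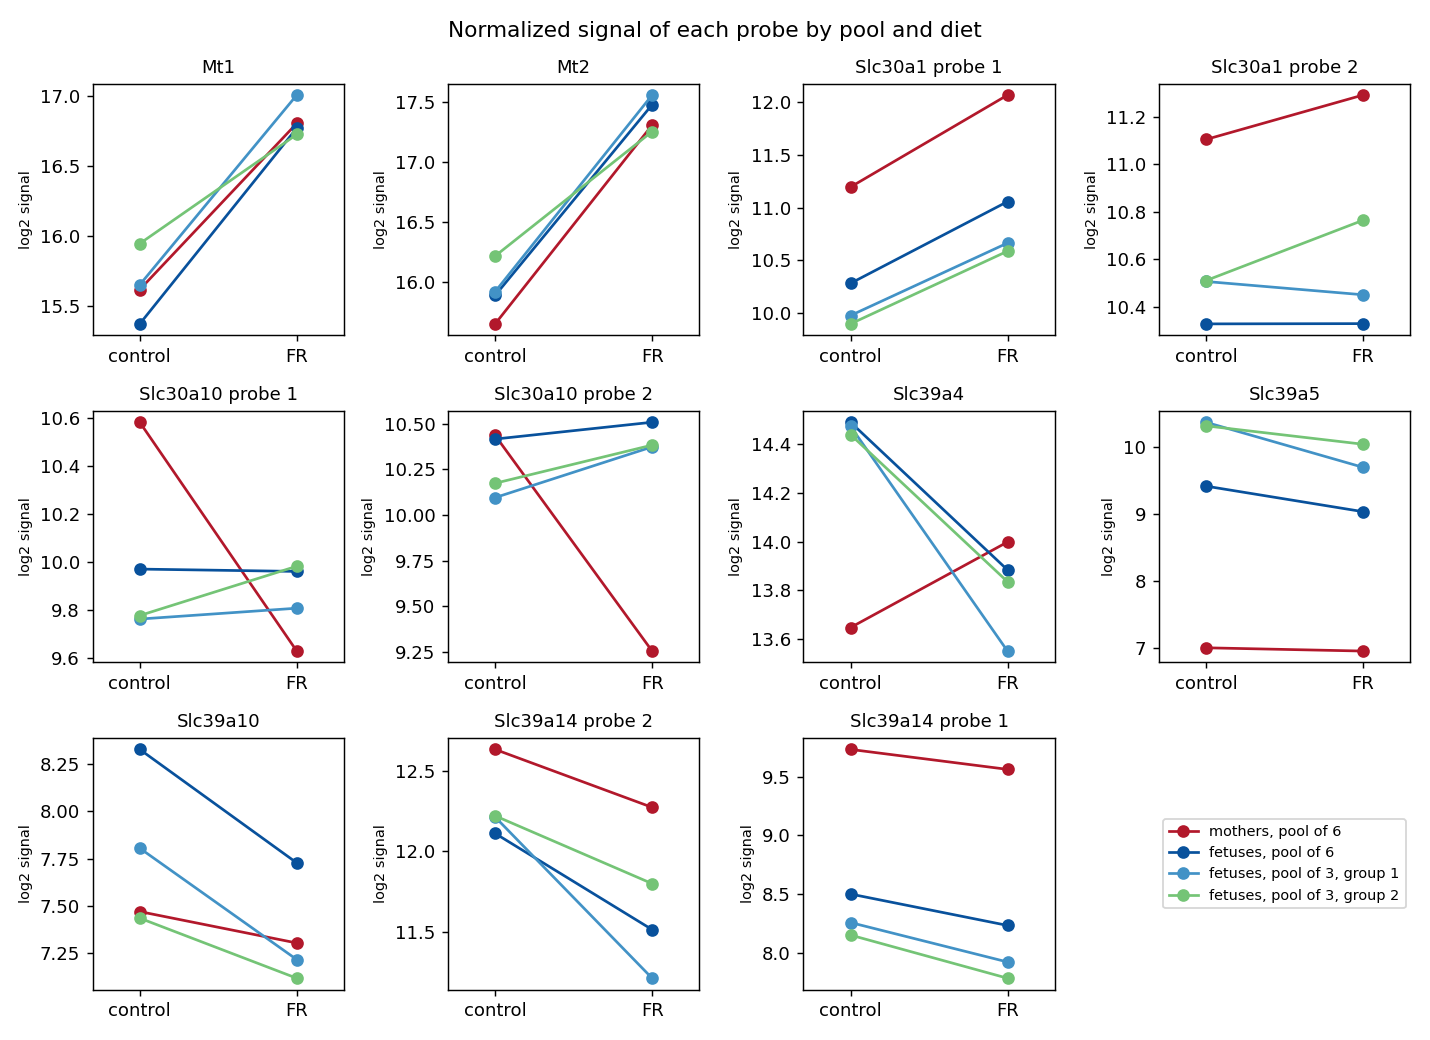
Normalized log2 signal (vertical axis, each panel with its own range) of the 11 probes in control and FR pools, a line joining the pools that shared arrays; colours stand for the 4 pool pairs. Mt1, Mt2 and Slc30a1 probe 1 go up in all 4 pairs, Slc39a4 goes up in the mothers and down in the fetuses, and Slc30a10 goes down in the mothers.

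Other genes of zinc handling were counted beside these. Of 21 further Slc30, Slc39, metallothionein and Mtf1 genes, 20 were on the array and 18 tested, each by its brightest probe. In the fetus 2 of the 18 rose and 6 fell, against 10.5% and 13.7% of all probes, and their median log2 ratio was -0.12 beside 0.00 for all probes. Slc30a6, which loads zinc into the secretory pathway, fell by 0.62 ± 0.17 (SD, n = 3; adjusted p = 0.00862), and Slc39a3, a plasma membrane importer, by 0.41 ± 0.07 (adjusted p = 0.00862). Slc39a13 fell by 0.31, with another probe at 0.02, Slc39a8 fell by 0.23, and Mt4 rose by 0.24. The other gene that rose, Slc30a7, at 0.21, is named after its value was seen, and its other probes reached down to -0.26. Mtf1, which encodes MTF-1 itself, fell by 0.34 ± 0.17 on its brightest probe (adjusted p = 0.0317), but its other probe read 0.51, so the probes disagree. No gene of the list passed 2-fold on both arrays in the mothers, against 1.98% of all probes, and there Slc30a6 read -0.71 and Mtf1 -0.65. None differed between the maternal and fetal responses at an adjusted p under 0.05 by limma, against 3.04% of all probes. At an unadjusted p under 0.05 there were 4 of 18, beside 5724 of all 28505 probes. In control level 3 of 18 were higher in mothers, a share near the 16.5% of all probes: Slc30a6 by 1.00, Slc39a11 by 0.89 and Slc39a1 by 0.64. In fetuses 1 was higher, against 15.6% of all probes. This was Slc39a6, with a maternal minus fetal difference of -0.79.

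Copper genes were counted because metallothioneins also bind copper. Of 10 in the fetus 1 rose, a share near the 10.5% of all probes, the copper chaperone gene Atox1 by 0.46 ± 0.06 (SD, n = 3), and 4 fell (13.7% of all probes did), among them the copper importer gene Slc31a1 by 0.73 ± 0.08 and Ccs, the copper chaperone of Sod1, by 0.59 ± 0.18. Of 8 glucocorticoid-responsive genes 6 rose in the fetus, against 10.5% of all probes, with a median of 0.76: Tat by 2.05 ± 0.32, Ddit4 by 1.22 ± 0.25 and Sgk1 by 0.84 ± 0.15, although another Sgk1 probe read 0.01. In the mothers 1 of 8 was higher past 2-fold, the clock gene Per1 at 1.99, and 1 lower, Sgk1 at -1.20, against 0.976% and 1.01% of all probes. The maternal median of the list was 0.69, close to the fetal one, but single genes differed between the responses. By limma 1 of 8 was higher in mothers, Per1 by 1.22 (adjusted p = 0.0188), against 1.5% of all probes. Another 1 was lower, Sgk1, with a maternal minus fetal difference of -2.04 (adjusted p = 0.0097), against 1.54% of all probes. Of 15 acute phase genes 2 rose in the fetus and 7 fell, against 10.5% and 13.7% of all probes: Hamp, the iron hormone hepcidin, rose by 1.66 ± 0.81, Hp, which binds free haemoglobin, rose by 0.86 ± 0.49, and Saa3 changed by -1.27 ± 0.25. In the mothers 3 of these 15 were lower past 2-fold, against 1.01% of all probes, Saa2 at -2.54, Saa3 at -1.67 and Saa1 at -1.498. In the mothers no copper gene passed 2-fold on both arrays. These lists were chosen with earlier results of these data known, so their counts beside all probes are descriptions only. The part of hormone or inflammatory signals in the metallothionein values was not tested.

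The genes with the response most like that of Mt1 were sought over the 8 arrays among 22263 probes, by the root mean square difference of log2 ratios. Mt2 came first, at 0.34 (Pearson's r = 0.98 over 8 arrays, which share pools and dyes), followed by Cyp26b1, which breaks down retinoic acid, at 0.41, Chic2 at 0.54, Tmem87b at 0.55 and Rprd2 at 0.56. For Mt2 the order was Mt1, Cyp26b1 at 0.59, Nfe2l2, a transcription factor of the oxidative stress response, at 0.59, Chic2 at 0.62 and Zc3h6 at 0.64. Cyp26b1 had ratios of 1.31 in the mothers and 0.98, 1.45 and 0.78 in the fetal pairs, and Nfe2l2 1.68, and 1.70, 1.67 and 1.23. Being chosen over the same arrays, these genes share the pattern by construction.

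Markers of other cells moved with the diet in the same pools. In the fetus 4 of 5 granulocyte markers and 2 of 4 Kupffer cell and macrophage markers fell, against 13.7% of all probes. Of 4 hepatocyte markers on the array 2 fell, Alb by 0.45 and Ttr by 0.97, and 1 rose, against 10.5% of all probes. In the mothers 2 of 4 Kupffer cell and macrophage markers were lower past 2-fold (1.01% of all probes), with a median of -0.88, beside the lower Slc30a10 values. Of 4 erythroid markers in the mothers none passed 2-fold on both arrays, but their median was -0.82, with Hbb-b1 at -1.02, Alas2 at -0.86, Hba-a1 at -0.78 and Klf1 at 0.88. The mean log2 signal of the Kupffer cell and macrophage markers was 12.4 in control and 11.5 in FR mothers, 12.7 to 12.8 in control and 12.2 to 12.5 in FR fetal pools. Granulocyte markers had a mean of 14.5 to 14.7 in control and 14.0 to 14.2 in FR fetal pools. Their part in the values of the metallothionein and transporter genes was not tested.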

How the data were processed

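Liver RNA of pools from restricted and control mice was hybridized in pairs to 8 Agilent 2-colour arrays, 1000 ng per labelling per the labels. The deposited scanner files hold spot intensity and local background per channel, with flags and a log10 ratio (Agilent Feature Extraction, version 9.5.3.1 in the submitters' processing notes and on slide 1, and 11.0.1.1 on slide 2, per the file headers). The deposited value table holds the software's log10 ratio of Cy5 over Cy3, not turned for the dye exchange; both agreed within 4.0e-07 wherever the software's ratio was not 0. Per the file headers, slide 1 coordinates are mm9.

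Mean signals (slide 2: median signals, its files giving no mean here) were background-corrected with normexp (offset 50), loess-normalized within arrays and turned to FR over control on the log2 scale in limma 3.58.1 (R 4.3.3). Control spots had weight 0, spots marked as population outliers were left out, spots of a probe were averaged, and the 2 arrays of a dye exchange were averaged to 1 replicate. A probe was tested if it was well above background in either channel on every array of the comparison. Fetal values came from lmFit and eBayes on 3 pool pairs, maternal minus fetal values from 4 pairs. Levels are single-channel log2 signals after Aquantile normalization, of probes well above background in the control channel on every array of mothers or of fetuses. P-values were adjusted (Benjamini-Hochberg) over all probes tested, with a threshold of 0.05. List genes were read from their brightest probe, up to 6 named from the zinc list and 3 from each other list, by size among those that passed. The 11 probes were all named. The 5 genes most like Mt1 and Mt2 were named by the root mean square difference. Members and lists were chosen with earlier results of these data known. The fits were tested on simulated data. Promoter windows were searched with Python, and figures drawn with matplotlib. Proteins were not analysed here, and 1 of 4 B lineage markers is not reported here. The alternatives tried are given in the closing section.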

Additional observations from a re-analysis of the deposited data

Results flagged for a closer look

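Both probes of Slc30a10 and the probe of Slc39a4 stood out because the response to restriction differed between mothers and fetuses in a test of the difference itself (limma over 4 pool pairs). The maternal minus fetal difference in log2 ratio was -1.04 for Slc30a10 probe 1 and -1.37 for Slc30a10 probe 2, and 1.06 for Slc39a4. For Slc39a4 both maternal arrays lay above 0 and all 6 fetal arrays below it. For Slc30a10 both maternal arrays lay below 0 on either probe, while no fetal change was detected. By limma its fetal means were 0.08 for probe 1 (adjusted p = 0.369) and 0.19 for probe 2 (adjusted p = 0.0586). That of probe 1 was -0.047 without loess. The maternal side rests on 1 pool pair, and for Slc39a4 on spots marked as non-uniform.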

How the results depend on the processing

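Counts over the whole array moved with many settings. Against 7756 fetal calls, there were 4680 without loess, 5013 without non-uniform spots, 3260 with slide as a term, 0 with scaling between arrays (limma; 11099 probes at an unadjusted p under 0.05), and 727 to 6906 when 1 pool pair was left out, the lowest without the pool pair of 6 and 3652 without group 1. The 577 maternal probes past 2-fold became 182 without loess, 351 without non-uniform spots, 1331 with the deposited ratios, and 920 and 915 with FR in Cy5 or Cy3 alone. The 867 differences in response became 285 without loess, 101 with scaling, 392 without non-uniform spots, 2013 with the deposited ratios and 0 with slide as a term (4480 at an unadjusted p under 0.05), and ran from 0 (without the pool pair of 6; 4633 at an unadjusted p under 0.05) to 1185 with 1 pair left out. The 9815 level differences became 5889 without non-uniform spots and 5962 past 2-fold on slide 1, and 5346 (without group 1) to 15693 (without the pool pair of 6) with 1 pair left out. The signs of the 8 fetal calls held under every alternative that measured them. For Slc39a4 and Slc30a10 the difference in response kept its sign under every alternative that measured it. Leaving out non-uniform spots gave no value for Slc39a4, marked on every slide 1 array. It gave none for Slc30a10 probe 1 either, marked on both arrays of the fetal pool of 6. By limma the difference did not pass with scaling for Slc39a4 (adjusted p = 0.124) and Slc30a10 probe 1 (0.0711), nor without loess for the Slc30a10 probes (0.135 and 0.0602). Signs turned for values that had not passed: the fetal mean of Slc30a1 probe 2 without loess (-0.064), and from -0.027 (without group 2) to 0.127 (without group 1) with 1 pair left out, and of Slc30a10 probe 1 without loess (-0.047). The maternal minus fetal response of Mt1 was -0.017 with median signals, -0.72 without non-uniform spots, -0.24 with FR in Cy3 alone, -0.046 with slide as a term and -0.19 without group 2. That of Mt2 was -0.94 without non-uniform spots and -0.13 with FR in Cy3 alone, and that of Slc30a1 probe 1 was -0.029 with FR in Cy5 alone. Control level differences of Mt1 were 0.76 without non-uniform spots, 0.16 with FR in Cy3 alone, 0.12 with 75th percentile scaling and -0.18 (without the pool pair of 6) to 0.11 (without group 2) with 1 pair left out, and those of Mt2 were 0.85 without non-uniform spots and 0.040 with FR in Cy3 alone. Leaving out non-uniform spots removed the maternal array with FR in Cy5 for both metallothioneins. For Mt2 it also removed the array of the fetal pool of 6 with FR in Cy3. The Mt2 values left were thus 0.70 in the mothers and 2.24 in that fetal pair. Other causes were not tested. In FR channels the level difference was -0.29 and -1.17 for the Slc30a10 probes and 0.24 for Slc39a4. No paired analysis was possible because the groups compared share fewer than 2 replicate numbers. Every pair holds control and FR on the same arrays, and 3 fetal pairs and 1 maternal pair limit all comparisons.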
